A study of Homo sapiens with 12 samples.

Results

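The 9 genes described here, HLA-B, HLA-C, HLA-E, B2M, TAP1, TAP2, TAPBP, PSMB8 and PSMB9, build, load or supply HLA class I molecules. They were taken by symbol from the counts table, in which they are 9 of 19225 entries, and they were followed through 6 conditions of a FAT1 knockdown (FAT1 KD) experiment in oral squamous cell carcinoma (OSCC) cells. All 9 passed the filter on low counts. With siFAT1-2, HLA-B, HLA-C and TAPBP were lower than in the negative control (NC), 3 of 9 where 7.47% of all genes tested were lower. With siFAT1-1 none of the 9 passed the test against NC, where 3.25% of all genes did. Between the siRNAs, 7 of the 9 were higher with siFAT1-1, where 10% of all genes were.

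A class I molecule is a heavy chain, encoded by HLA-B, HLA-C or the less variable HLA-E, held by beta-2-microglobulin (B2M) and carrying a short peptide to the cell surface for inspection by T cells and natural killer cells. The peptides are cut from cytosolic proteins by the proteasome, in which the interferon-inducible subunits PSMB8 and PSMB9 can replace constitutive ones, and are pumped into the endoplasmic reticulum by the TAP1 and TAP2 heterodimer. Tapasin (TAPBP) bridges that transporter and the empty heavy chain. Most of these genes are known to respond to interferons and to NF-kappa B, and tumor cells can lower them and so be seen less by T cells.

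HN6 and HN30 are established OSCC cell lines. Each was transfected for 24 h with siFAT1-1 or siFAT1-2, separate siRNAs against FAT1, an atypical cadherin of very large size, or with a scrambled siRNA (NC), by lipid transfection. All 3 conditions of a line thus carried transfected siRNA, and no untransfected cells are among them. The knockdown was transient and left part of FAT1 in place, and each condition was run as 2 repeats at separate times, giving 12 libraries of poly(A) RNA.

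The libraries held 26430049 to 47639010 assigned counts, so the least abundant member, PSMB9, still had 471 to 3576 counts in a library. FAT1 was at 12.3 to 34.6% of the NC mean in the knockdown libraries of HN6 and at 34.3 to 76.1% in those of HN30. Its log2 fold change was -1.996 with siFAT1-1 (adjusted p = 0.00656) and -1.27 with siFAT1-2 (adjusted p = 0.0236; edgeR quasi-likelihood test, Benjamini-Hochberg over all genes tested). The difference between the siRNAs in FAT1 was -0.73 (adjusted p = 0.119). All 8 squamous epithelial markers were detected, with a summed level of 1330 to 4040 CPM. CPM are counts relative to the library total, scaled by the trimmed mean of M-values. KRT14 was low, at 0.0 to 2.42 CPM, while KRT5 was at 90.6 to 1990 CPM and CDH1 at 314 to 1010 CPM. The summed level of 8 leukocyte markers was 24.5 to 124 CPM, most of it CD68, at 16.1 to 121 CPM, with CD14 next, at 2.08 CPM or more, while PTPRC did not exceed 0.0252 CPM.

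In hg38 coordinates, 8 of the 9 genes are on chromosome 6, and TAP2, PSMB8, TAP1 and PSMB9 follow each other within 38.0 kb, at chr6:32821833-32859851. TAP1 is read from the minus strand and PSMB9 from the plus strand, and their RefSeq starts are 487 bases apart, back to back. HLA-C lies at chr6:31268749-31272130, HLA-B at chr6:31353872-31367067, HLA-E at chr6:30489509-30494194 and TAPBP at chr6:33299694-33314284, whereas B2M lies at chr15:44711358-44718851. The library protocol does not mark strand, so reads from overlapping neighbours on the other strand cannot be told apart: 17.3% of the exon bases of PSMB8 and 14.2% of those of TAP1 are shared with the antisense RNA PSMB8-AS1, as are 21.0% of those of TAPBP with a long noncoding RNA and 14.5% of those of HLA-B with a pseudogene, and PSMB8 and PSMB9 share 139 bases. On the same strand, HLA-B shares 30.7% of its exon bases with the pseudogene DHFRP2 and TAP2 shares 19.5% with another protein-coding gene. HLA-B and HLA-C are near-identical over long stretches, so the split of reads between them is uncertain.

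Stretches around the start of 7 members are printed because they hold the letters by which interferon and NF-kappa B control of this pathway is usually recognised. They come from RefSeq windows of 250 bases before to 50 after a start (GRCh38.p14), which matched 8 of the 9 members (HLA-E did not match). Those of TAPBP and PSMB8 run past the start, to bases 10 and 26 after it, and the others lie before it. The motifs were searched on both strands, and capitals mark every match: GAAANNGAA (an interferon-stimulated response element, ISRE), GAAGTGAAA (the form read in HLA-B and HLA-C, chosen after seeing those windows), GGGANTNCC and GGGACTTTC (kappa B, the latter form chosen after seeing the TAP1 window), TGACG (the core of a cAMP response element) and CCAAT (a Y box). Some matches overlap each other.

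HLA-B, chr6:31357216-31357370, minus strand: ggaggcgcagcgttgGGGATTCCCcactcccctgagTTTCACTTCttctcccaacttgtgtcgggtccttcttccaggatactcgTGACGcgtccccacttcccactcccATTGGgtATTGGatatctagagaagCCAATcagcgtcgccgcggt
HLA-C, chr6:31272129-31272258, minus strand: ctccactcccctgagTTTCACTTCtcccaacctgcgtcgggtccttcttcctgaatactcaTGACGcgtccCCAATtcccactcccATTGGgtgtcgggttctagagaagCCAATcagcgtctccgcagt
B2M, chr15:44711358-44711487, plus strand: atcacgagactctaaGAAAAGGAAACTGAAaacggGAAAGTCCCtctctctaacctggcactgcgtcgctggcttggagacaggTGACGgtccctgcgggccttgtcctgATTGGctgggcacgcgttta
TAP1, chr6:32853753-32853852, minus strand: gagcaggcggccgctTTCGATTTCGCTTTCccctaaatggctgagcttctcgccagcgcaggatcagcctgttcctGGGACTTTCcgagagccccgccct
TAP2, chr6:32838755-32838812, minus strand: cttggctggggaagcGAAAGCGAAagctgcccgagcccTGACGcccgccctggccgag
TAPBP, chr6:33314069-33314148, minus strand: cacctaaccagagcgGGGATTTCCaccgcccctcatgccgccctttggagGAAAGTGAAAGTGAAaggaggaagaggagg
PSMB8, chr6:32844022-32844065, minus strand: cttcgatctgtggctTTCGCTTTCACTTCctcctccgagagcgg

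Read against all 35116 promoter windows, the ISRE letters GAAANNGAA stood in 8.11% of windows, and B2M, TAP1, TAP2, TAPBP and PSMB8 each held them. The form GAAGTGAAA stood in 0.51% of windows, and HLA-B, HLA-C and PSMB8 held it. The kappa B letters stood in 4.35% of windows as GGGANTNCC and in 0.387% as GGGACTTTC, and HLA-B, TAPBP, TAP1 and B2M held at least 1 of them in the stretch shown, as did the window of another PSMB8 start, which is not printed. TGACG stood in 24.6% of windows and CCAAT in 34.6%. In HLA-B, HLA-C and B2M it was followed downstream by ATTGG, the Y box read from the other strand, an order known from the promoters of class I genes, to which RFX, CREB and NF-Y factors and the coactivator NLRC5 are recruited. No ISRE or kappa B letters were found in the PSMB9 window, which does not reach the stretch printed under TAP1. A match is a description of letters, and no binding was measured.

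In the NC libraries the structural parts of the complex were the most abundant. In HN6, the level per length was 923 ± 61.5 CPM per kb for HLA-C (mean ± SD, n = 2), followed by 783 ± 23.5 for B2M and 307 ± 21.8 for HLA-B. In HN30 the order changed, with B2M at 1613 ± 226 CPM per kb, HLA-B at 612 ± 210 and HLA-C at 569.7 ± 50.4. HLA-B and HLA-C could not be ordered in HN30, since their repeats overlapped. TAPBP came next in both lines, at 172 ± 15.5 CPM per kb in HN6 and 125 ± 19.6 in HN30.

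The peptide-supplying genes were lower and close to each other. PSMB8, PSMB9, TAP1 and TAP2 lay between 39.7 and 80.2 CPM per kb in HN6 and between 51.2 and 82.8 in HN30. In HN6, where the NC repeats stood apart, each of the 4 overlapped the next. In HN30, PSMB8 overlapped TAP1, and HLA-E, at 62.9 ± 14.1 CPM per kb, overlapped PSMB9 and TAP2. PSMB8, for example, was at 47.1 CPM per kb in NC repeat 1 and at 113 in NC repeat 2 of HN6, against 88.1 and 77.4 in HN30. Together the 9 genes took 0.249 to 0.519% of all counts of a library.

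**Figure D1:**
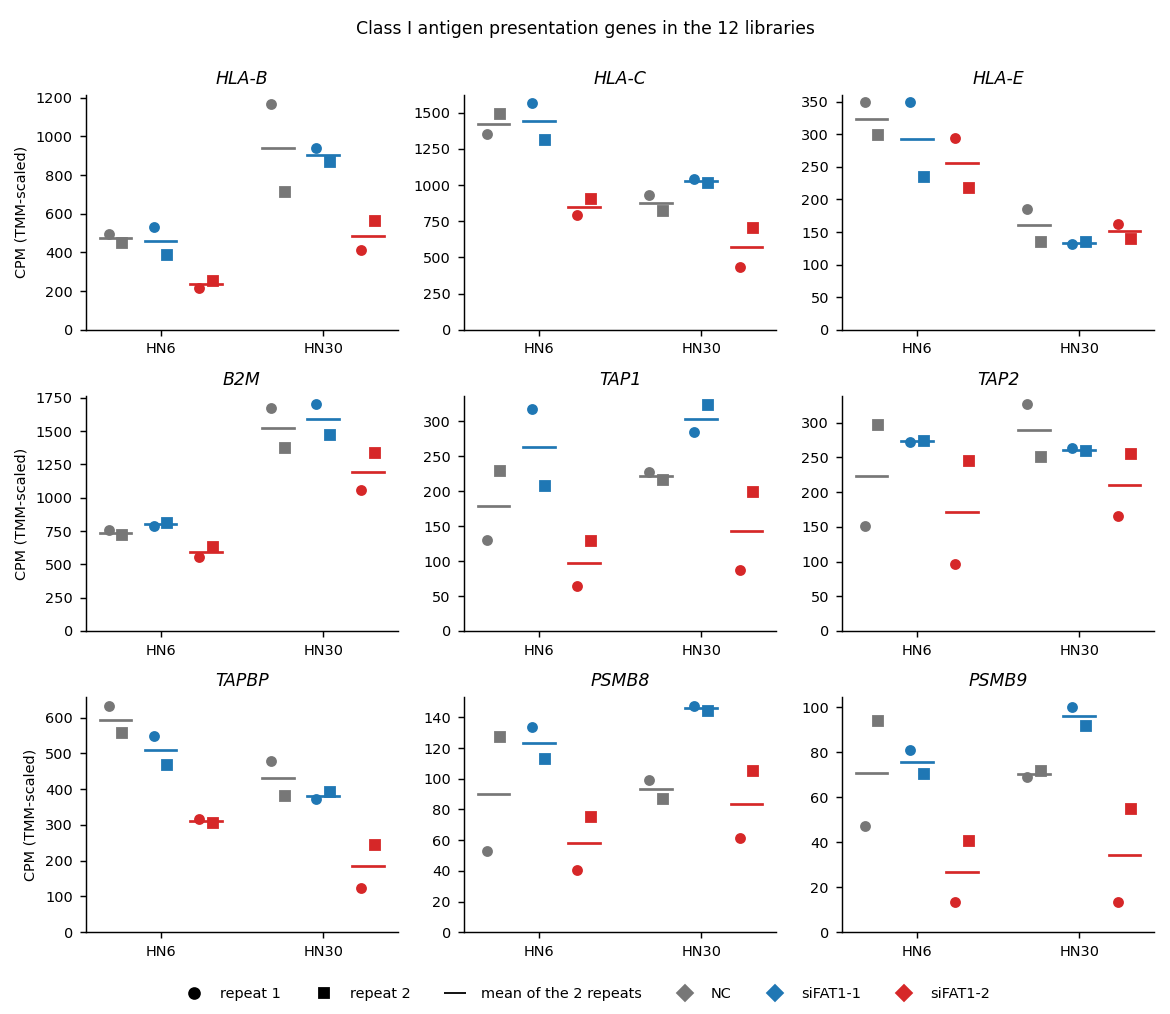
Level of each of the 9 genes in CPM, on axes that start at 0, in the HN6 and HN30 libraries with NC, siFAT1-1 or siFAT1-2. Points are single libraries (circles repeat 1, squares repeat 2) and lines are means of 2 repeats. The siFAT1-2 points lie below both NC points in both lines for HLA-B, HLA-C, B2M, TAP1, TAPBP and PSMB9.

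The study's own question was what changes when FAT1 is lowered, with both siRNAs and both lines pooled. Over the 8 knockdown and 4 NC libraries, with a term for the cell line, none of the 9 genes passed an adjusted p of 0.05, where 0.547% of all 13887 genes tested did, and none passed an unadjusted p of 0.05. By DESeq2 and limma-voom 0 passed an adjusted p of 0.05 too, and by limma-voom TAPBP had an unadjusted p of 0.0336. The smallest adjusted p was 0.345, for TAPBP, with a log2 fold change of -0.57 ± 0.26 (SE). The median over the members was -0.21 against 0.02 over all genes, and 7 of the 9 were below 0, as were 48% of all genes. The range ran from -0.57 for TAPBP to 0.15 for PSMB8. Both siRNAs form a single group in this test, so its spread includes the difference between them. The SE of HLA-B was 0.27 here and 0.18 for siFAT1-1 against NC, with siRNA as a factor. In these bulk samples, fewer cells of a type and less RNA per cell cannot be told apart.

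Within HN6 or within HN30, knockdown against NC gave 0 members, and 0 (0% of genes tested) among all genes by the edgeR quasi-likelihood test. At an unadjusted p of 0.05, 0 members passed in either line. By DESeq2, 68 genes passed in HN6 and 201 in HN30, and no member was among them. The interaction of cell line and knockdown, the test of whether the lines differ in their change, also called 0 members and 0 genes, and 0 members at an unadjusted p of 0.05.

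With siFAT1-1, the siRNA with the lower mean FAT1 RNA in both lines, no change in the members was detected. None of the 9 passed the test against NC, where 3.25% of all genes did, and none passed an unadjusted p of 0.05, and the smallest adjusted p was 0.310. The median log2 fold change was 0.09, with values from -0.21 for HLA-E to 0.55 ± 0.28 (SE) for PSMB8. In HN30, the siFAT1-1 libraries did not overlap NC and lay above it for HLA-C, TAP1, PSMB8 and PSMB9, a pattern shown by 30.3% of all genes. PSMB8, a catalytic subunit of the immunoproteasome, was at 148 and 144 CPM with siFAT1-1 in HN30, against 99.0 and 87.0 CPM in NC. In HN6 the same gene was at 134 and 113 CPM with siFAT1-1 and at 52.9 and 127 CPM in NC, which overlap.

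With siFAT1-2, all 9 members had a log2 fold change below 0, as did 50.3% of all genes. The median was -0.69 against -0.00 over all genes. In the test, 3 of the 9 were lower at an adjusted p under 0.05, where 7.47% of all genes were lower, and 6 of the 9 at an unadjusted p under 0.05, where 16% of all genes were lower. For 6 members, HLA-B, HLA-C, B2M, TAP1, TAPBP and PSMB9, the siFAT1-2 libraries lay below the NC libraries in both lines without overlap, as they did for 12.9% of all genes. The comparisons of each siRNA with NC share the same 4 NC libraries and are given side by side only.

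**Figure D2:**
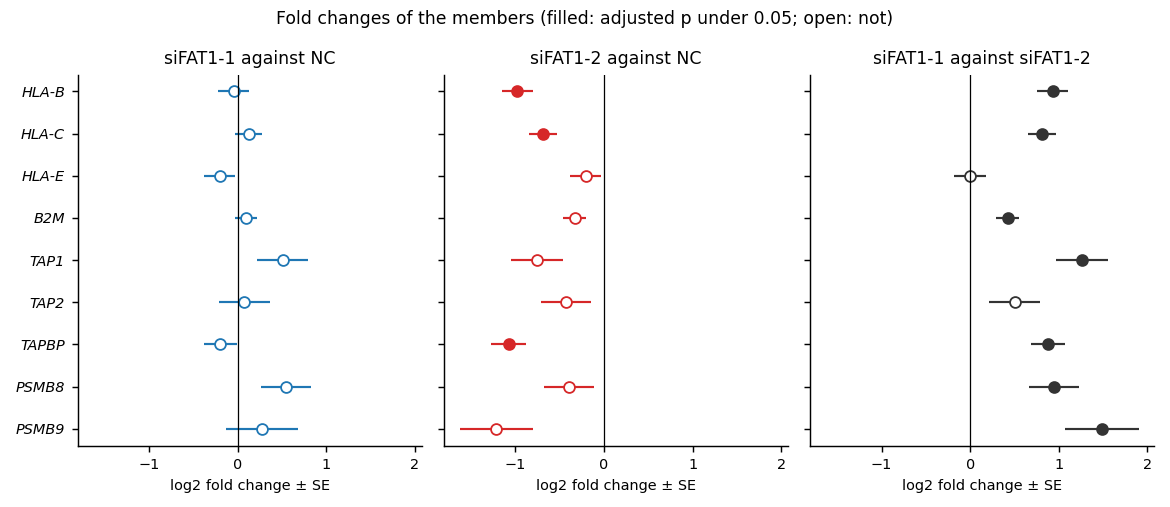
Log2 fold change (x axis) of each of the 9 genes for siFAT1-1 against NC, siFAT1-2 against NC and siFAT1-1 against siFAT1-2, with bars of 1 SE from fits on all 12 libraries. Filled points passed an adjusted p of 0.05, which 0, 3 and 7 genes did.

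Among the heavy chains, HLA-B presents peptides to cytotoxic T cells. It was at 496 and 448 CPM in the NC repeats of HN6, at 532 and 385 CPM after siFAT1-1 and at 218 and 253 CPM after siFAT1-2. The HN30 values were 1168 and 712 CPM in NC, 942 and 869 CPM for siFAT1-1 and 412 and 560 CPM for siFAT1-2. In both lines the siFAT1-2 libraries were the lowest and did not overlap the other 4 of their line. The log2 fold change of siFAT1-2 against NC was -0.98 ± 0.18 (SE; adjusted p = 0.00746, edgeR quasi-likelihood). That of siFAT1-1 was -0.05 ± 0.18 (adjusted p = 0.912), and siFAT1-1 was above siFAT1-2 by 0.93 ± 0.18 (adjusted p = 0.00584).

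HLA-C, which also serves as a ligand of killer cell receptors, followed the same order. It was at 1356 and 1490 CPM in NC of HN6, 1567 and 1314 CPM for siFAT1-1 and 792 and 903 CPM for siFAT1-2. In HN30 the values were 933 and 824 CPM in NC, 1041 and 1011 CPM with siFAT1-1 and 435 and 706 CPM with siFAT1-2. The fold change of siFAT1-2 against NC was -0.69 ± 0.16 on the log2 scale (adjusted p = 0.0180, edgeR). It passed in 17 of the 19 other settings that used both lines, and missed without HN30 NC repeat 1 (adjusted p = 0.0541) and without HN6 siFAT1-2 repeat 1 (adjusted p = 0.0502). The siRNAs differed by 0.81 ± 0.16 (adjusted p = 0.00631).

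HLA-E, whose product is read by natural killer cells, did not show this order. It was at 349 and 298 CPM in NC of HN6, 349.7 and 235 CPM for siFAT1-1 and 295 and 218 CPM for siFAT1-2. Its HN30 libraries held 186 and 135 CPM in NC, 131 and 135 CPM for siFAT1-1 and 163 and 139.7 CPM for siFAT1-2. The log2 fold change was -0.21 ± 0.18 with either siRNA, and the difference between siRNAs was 0.00 ± 0.18 (adjusted p = 1.00). With its values centred within each line, HLA-E had a Pearson r of 0.03 with the mean of the other 8 members over the 12 libraries, whereas the other members had r of 0.73 to 0.96 with the mean of theirs. These points share libraries and depth, and r is given as a description.

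B2M, the light chain shared by every class I molecule, was at 754 and 723 CPM in NC of HN6, 791 and 811 CPM for siFAT1-1 and 555 and 629 CPM for siFAT1-2. HN30 had 1672 and 1370.1 CPM in NC, 1706 and 1472 CPM for siFAT1-1 and 1056 and 1336 CPM for siFAT1-2. The siFAT1-2 libraries did not overlap NC in either line, though siFAT1-2 repeat 2 and NC repeat 2 of HN30 were close. The log2 fold change of siFAT1-2 was -0.33 ± 0.13 (unadjusted p = 0.0227, adjusted p = 0.109, edgeR). B2M was higher with siFAT1-1 than with siFAT1-2 by 0.42 ± 0.13 (adjusted p = 0.0404). With the repeat as a block that adjusted p was 0.0564, and B2M passed in 8 of the 19 other settings that used both lines.

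TAPBP encodes tapasin, the bridge between the transporter and the heavy chain. It was at 632 and 556 CPM in NC of HN6, 550.0 and 467 CPM for siFAT1-1 and 316 and 305 CPM for siFAT1-2. HN30 had 478 and 382 CPM in NC, 373 and 392 CPM for siFAT1-1 and 124 and 244 CPM for siFAT1-2. The siFAT1-2 libraries were the lowest of their line in all 4 cases. The log2 fold change of siFAT1-2 was -1.08 ± 0.19 (adjusted p = 0.00706, edgeR), and it passed in 19 of 19 other settings that used both lines, as HLA-B did. That of siFAT1-1 was -0.20 ± 0.19 (adjusted p = 0.614), and the siRNAs differed by 0.88 ± 0.19 (adjusted p = 0.0105).

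TAP1 and TAP2 form the peptide transporter. TAP1 was at 129.6 and 229 CPM in NC of HN6, 318 and 208 CPM for siFAT1-1 and 64.7 and 129 CPM for siFAT1-2. Its HN30 libraries held 227 and 215 CPM in NC, 284 and 323 CPM for siFAT1-1 and 87.7 and 199 CPM for siFAT1-2. TAP1 had a log2 fold change of -0.75 ± 0.29 with siFAT1-2 (adjusted p = 0.110, edgeR) and of 0.51 ± 0.29 with siFAT1-1 (adjusted p = 0.360). Neither passed against NC, while siFAT1-1 was above siFAT1-2 by 1.26 ± 0.29 (adjusted p = 0.0141), in 19 of 19 other settings with both lines.

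TAP2 was at 151 and 296 CPM in NC of HN6, 273 and 274 CPM for siFAT1-1 and 97.0 and 245 CPM for siFAT1-2. HN30 had 327 and 251 CPM in NC, 263 and 259 CPM for siFAT1-1 and 165 and 254 CPM for siFAT1-2. The siFAT1-2 libraries overlapped NC in both lines. TAP2 differed between siFAT1-1 and siFAT1-2 by 0.50 ± 0.28 (adjusted p = 0.235), a difference that missed the threshold although the siRNA groups did not overlap in either line.

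PSMB9 had the widest range of the 9 genes, with 7.5 times as many CPM in its highest library as in its lowest. This catalytic immunoproteasome subunit was at 47.4 and 93.9 CPM in NC of HN6, 81.0 and 70.3 CPM for siFAT1-1 and 13.3 and 40.5 CPM for siFAT1-2. Its HN30 libraries held 69.1 and 71.5 CPM in NC, 100.1 and 91.9 CPM for siFAT1-1 and 13.6 and 54.9 CPM for siFAT1-2. Repeat 1 with siFAT1-2 was the lowest library in both lines. The log2 fold change of siFAT1-2 was -1.22 ± 0.41 (adjusted p = 0.0748, edgeR). With the repeat as a block it was -1.35 (adjusted p = 0.0394). PSMB9 passed against NC in 4 of the 19 other settings that used both lines.

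PSMB9 was higher with siFAT1-1 than with siFAT1-2 by 1.49 ± 0.41 (adjusted p = 0.0295), in 14 of 19 other settings with both lines. PSMB8 differed in the same direction by 0.94 ± 0.28 (adjusted p = 0.0396), in 12 of 19. PSMB8 with siFAT1-2 was at 40.6 and 75.2 CPM in HN6 and at 61.3 and 105 CPM in HN30, and overlapped NC in both lines.

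In the direct comparison of the siRNAs, 7 of the 9 members were thus higher with siFAT1-1 at an adjusted p under 0.05, where 10% of all genes were higher. The median difference over the members was 0.88 on the log2 scale. For 8 members, all but HLA-E, every siFAT1-2 library lay below every siFAT1-1 library of its line, as for 18.2% of all genes. HLA-B, HLA-C, TAP1 and TAPBP passed in each of the 19 other settings with both lines. Within 1 line, as a contrast in a model of the 6 conditions fitted on all 12 libraries, fewer members passed. TAPBP alone did in HN30 (1.06, adjusted p = 0.0490, edgeR) and 0 members in HN6. The summed squamous markers were at 2910 to 4040 CPM with siFAT1-1, 1950 to 2670 CPM with siFAT1-2 and 1330 to 2640 CPM in NC, and those of fibroblasts and endothelium at 42.5 to 112, 31.9 to 150 and up to 73.0 CPM. Of 3 such markers tested, 2 were higher with siFAT1-1 than with siFAT1-2. The part of either group of markers in these differences was not tested.

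The order of the siRNAs for the members was not that of the mean FAT1 RNA. The difference in FAT1 RNA between the siRNAs did not itself pass the test. FAT1 protein over actin was read in the study's supplementary blots. It was lower with siFAT1-2 than siFAT1-1 in each HN6 blot and the first HN30 blot, and higher in the repeat HN30 blot. In HN6, FAT1 RNA was at 12.3 and 21.9% of its NC mean for siFAT1-1, and 21.4 and 34.6% for siFAT1-2. For HN30, siFAT1-1 left 34.3 and 44.2% and siFAT1-2 left 76.1 and 54.7%. The mean log2 level of the 9 members, relative to NC of the line, lay between 0.01 and 0.30 in the 4 siFAT1-1 libraries and between -1.06 and -0.30 in the 4 siFAT1-2 libraries. The knockdown library with the most FAT1 RNA left, siFAT1-2 repeat 1 of HN30, had the lowest mean of the members.

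**Figure D3:**
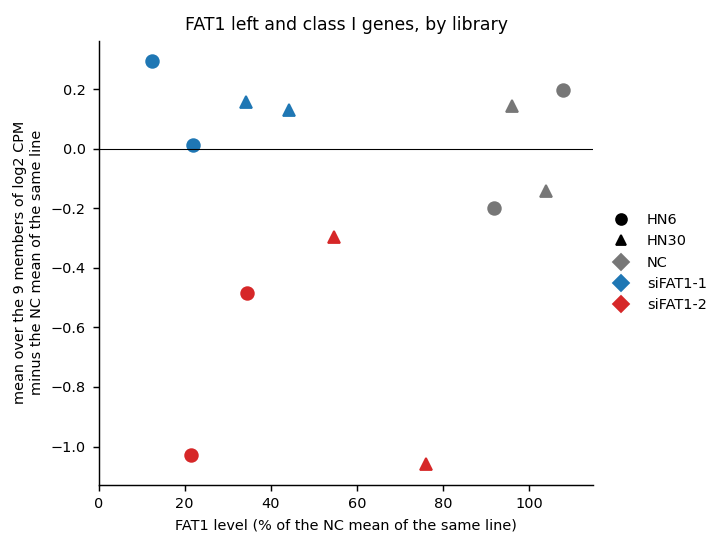
FAT1 level as a percentage of the NC mean of the same line (x axis) against the mean over the 9 genes of log2 CPM minus the NC mean of the line (y axis), 1 point per library. The 4 siFAT1-1 points lie above 0 and the 4 siFAT1-2 points between -1.06 and -0.30. FAT1 RNA levels of the siRNAs overlap narrowly in HN6 (21.9% for siFAT1-1 repeat 2, 21.4% for siFAT1-2 repeat 1). In HN30 they do not overlap and are lower with siFAT1-1.

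The repeats, run at separate times, gave unequal sizes. Compared with the NC library of the same line and repeat, the median member differed with siFAT1-2 by -1.10 on the log2 scale in HN30 repeat 1 and by -0.12 in HN30 repeat 2. In HN6 the medians were -0.78 and -0.76. All 9 members were below NC in 3 of these 4 pairs, and 6 of 9 in HN30 repeat 2. Between siRNAs, the median member was higher with siFAT1-1 by 1.29 in HN6 repeat 1, 0.59 in HN6 repeat 2, 1.26 in HN30 repeat 1 and 0.52 in HN30 repeat 2. The direction of the median was thus the same in all 4 pairs, with the larger difference in repeat 1 of both lines. With siFAT1-1 against NC the medians were 0.21, -0.18, 0.03 and 0.29 in the same order, of both signs.

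The exchange of proteasome subunits was read as the ratio of an immunoproteasome subunit to the constitutive one it replaces, each per kb. PSMB8 over PSMB5 was 0.449 ± 0.021 in NC of HN30 (mean ± SD, n = 2), 0.727 ± 0.005 with siFAT1-1 and 0.406 ± 0.191 with siFAT1-2. In HN6 it was 0.314 ± 0.133, 0.513 ± 0.000457 and 0.299 ± 0.144. PSMB10, the remaining interferon-inducible subunit, over PSMB7 was 0.256 ± 0.010 in NC of HN6, 0.277 ± 0.014 with siFAT1-1 and 0.136 ± 0.046 with siFAT1-2. In HN30 that ratio was 0.265 ± 0.021, 0.280 ± 0.020 and 0.126 ± 0.039. PSMB9 over PSMB6 also varied between repeats, at 0.212 and 0.328 in NC of HN6, 0.309 and 0.304 for siFAT1-1 and 0.0553 and 0.223 for siFAT1-2. Its values in HN30 were 0.460 and 0.705 in NC, 0.729 and 0.645 for siFAT1-1 and 0.117 and 0.475 for siFAT1-2.

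With both siRNAs pooled, none of the 3 ratios differed from NC beyond the spread, which here includes the difference between the siRNAs. The log2 difference was 0.29 for PSMB8 over PSMB5 (p = 0.44), -0.51 for PSMB9 over PSMB6 (p = 0.40) and -0.47 for PSMB10 over PSMB7 (p = 0.289), by two-sided exact permutation tests within line over 225 arrangements, and 0.44 each after adjustment over 3 ratios. Each siRNA alone allows 36 arrangements and no p below 0.0556. That smallest p was reached by PSMB8 over PSMB5 with siFAT1-1, at a log2 difference of 0.73, and by PSMB10 over PSMB7 with siFAT1-2, at -1.03 (exact permutation test; both 0.167 after adjustment over 3 ratios). The constitutive subunits PSMB5, PSMB6 and PSMB7 themselves had log2 fold changes of -0.18, -0.07 and -0.13 in FAT1 KD against NC, and none of the 14 constitutive proteasome genes listed passed an adjusted p of 0.05 with either siRNA.

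**Figure D4:**
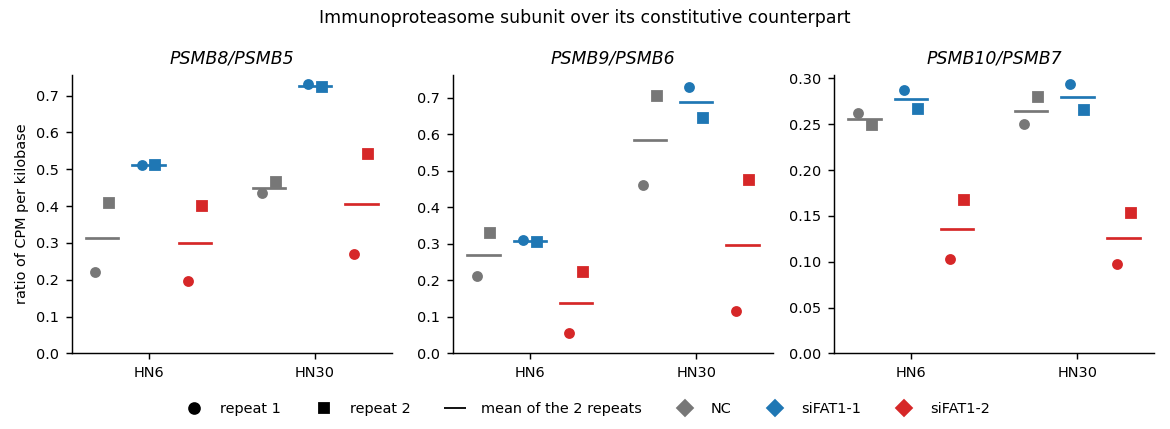
Ratio of CPM per kb of an immunoproteasome subunit to its constitutive counterpart (y axes from 0) in the 12 libraries, circles repeat 1 and squares repeat 2, with the mean of 2 repeats as a line. PSMB8 over PSMB5 lies above NC in every siFAT1-1 library, and PSMB10 over PSMB7 lies below NC in every siFAT1-2 library.

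Between the lines, 5 of the 9 members passed the test, a share near that of all genes, of which 56.9% passed. With the siRNA held fixed, HLA-B was lower in HN6 than in HN30 by a log2 difference of -1.01 ± 0.14 (adjusted p = 0.000101) and B2M by -1.01 ± 0.11 (adjusted p = 7.9e-06), where 28.2% of all genes were lower. HLA-E was higher in HN6 by 0.97 ± 0.14 (adjusted p = 0.000132), HLA-C by 0.59 ± 0.13 (adjusted p = 0.00202) and TAPBP by 0.54 ± 0.16 (adjusted p = 0.0104), where 28.8% of all genes were higher. B2M in HN6 lay below HN30 in every library, at 555 to 811 CPM against 1056 to 1706 CPM, as did 13.3% of all genes. HLA-E in HN6 lay above HN30 in every library, at 218 to 349.7 CPM against 131 to 186 CPM, as did 12.7% of all genes. For the NC conditions alone, as a contrast in a model of the 6 conditions fitted on all 12 libraries, 4 members passed. TAPBP no longer did (0.47, adjusted p = 0.230, edgeR). Reads of both lines were aligned to the same hg38 reference. What part the HLA alleles of each line have in the HLA-B and HLA-C values was not tested.

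The genes of the presentation route or its control beyond the 9 members were read from 11 lists, chosen like the members with earlier results known. In FAT1 KD against NC, 1 of 8 loading chaperones passed, GANAB, which trims the sugars of new glycoproteins (log2 fold change 1.24, adjusted p = 0.0242), and none of 15 other peptide supply genes, 5 other heavy chains tested, 15 regulators or 9 genes of interferon receptors and their kinases. Among 31 interferon-stimulated genes, IFIT2 had 1.24 (unadjusted p = 0.0453, adjusted p = 0.335). Of the marker lists, the desmosomal gene PERP rose by 1.37 (adjusted p = 0.00749), while DSG3 had 1.32 (adjusted p = 0.124) and the leukocyte integrin ITGAM, at no more than 3.28 CPM, had -1.56 (adjusted p = 0.310). None of the 6 class II genes tested passed, nor any of 3 leukocyte or 3 fibroblast and endothelial markers tested. The summed class II level was 4.40 to 176 CPM. CD74 reached 171 CPM, while no class II HLA gene listed exceeded 4.41 CPM.

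With siFAT1-2, the lists moved unequally. The genes named in this paragraph and the next, apart from PSMB10 and GANAB, were chosen after their values were seen. The heavy chain gene HLA-F, from a list of 5 tested, had -0.99 (adjusted p = 0.0222). PSMB10 fell by 1.18 on the log2 scale (adjusted p = 0.00253), and was the 1 of 15 peptide supply genes that passed, a share near the 7.47% of all genes that were lower. Of 8 loading chaperones, TAPBPL, a peptide editor related to tapasin, fell by 1.29 (adjusted p = 0.0169) and GANAB rose by 1.17 (adjusted p = 0.0109), and the list's median was 0.10. Of 15 regulators of class I genes, 4 were lower and 0 higher, where 7.47% of all genes were lower and 4.35% higher: the NF-kappa B subunits NFKB1 (-1.38, adjusted p = 0.00253) and RELA (-1.32, adjusted p = 0.00316), and the interferon regulatory factors IRF1 (-1.44, adjusted p = 0.0127) and IRF2 (-1.07, adjusted p = 0.00661). NLRC5, the coactivator of class I genes, had -0.69 (adjusted p = 0.0872). Of 9 genes of interferon receptors and their kinases, 4 were lower and 1 higher, and of 8 squamous markers 1 was lower and 3 higher.

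Between siRNAs, 7 of the 15 regulators, among them RELA, NLRC5, NFKB1, STAT2, IRF1 and IRF2, were higher with siFAT1-1 and 2 lower, where 10% of all genes were higher and 7.39% lower. NLRC5 was higher by 1.28 (adjusted p = 0.00601) and RELA by 1.12 (adjusted p = 0.00350). In contrast, NFYA, a Y box factor, differed by -0.81 (adjusted p = 0.00656). RFXAP, a subunit of RFX at only 0.555 to 4.45 CPM, differed by -1.45 (adjusted p = 0.0455). Over the 31 interferon-stimulated genes, the median log2 fold change against NC was 1.06 for siFAT1-1 and -0.40 for siFAT1-2. None passed an adjusted p of 0.05 against NC, while at an unadjusted p under 0.05, 11 were higher with siFAT1-1, where 8.81% of all genes were, and 2 were lower with siFAT1-2, where 16% of all genes were. In the direct comparison 6 of the 31 were higher with siFAT1-1. What part the regulators have in the levels of the members was not tested.

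**Figure D5:**
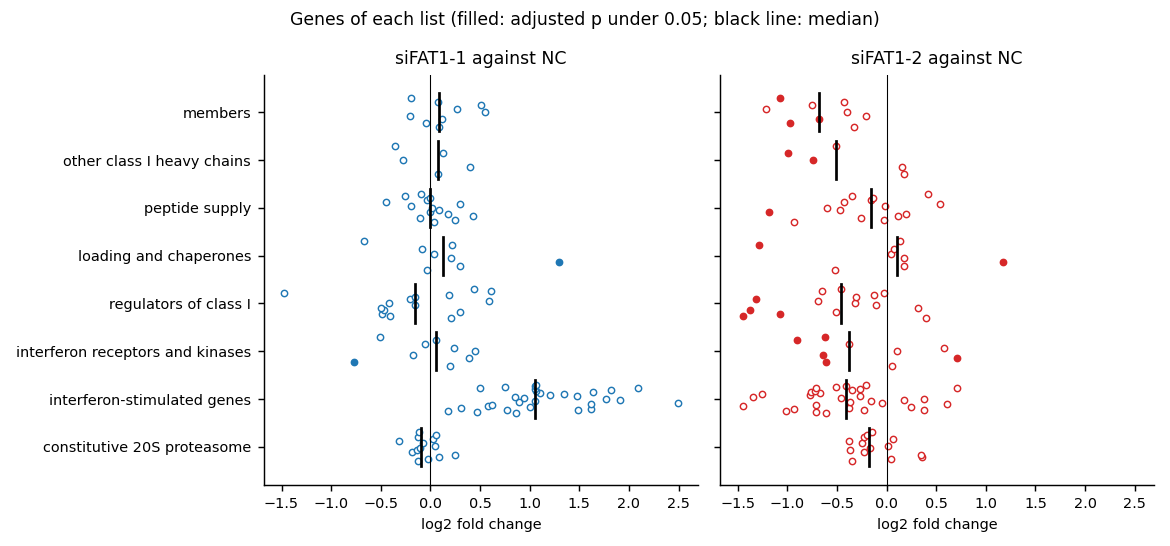
Log2 fold change (x axis) of single genes in 8 lists for siFAT1-1 against NC and siFAT1-2 against NC, which share the NC libraries. Filled points passed an adjusted p of 0.05 and black lines are medians; the median of the members is 0.09 with siFAT1-1 and -0.69 with siFAT1-2, and that of the interferon-stimulated genes 1.06 and -0.40.

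Outside all lists, the 5 genes whose profile over the 12 libraries, centred within each line, was most like the mean of the members were B3GNT3 (Pearson r = 0.988), PKP3 (0.982), PLXND1 (0.976), EXT2 (0.970) and BAG3 (0.969). These are the highest of the tested genes outside the members and the lists. They were ranked by this measure, so r is a description with no test.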

How the data were processed

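RNA of 12 libraries was compared. The sample labels call siFAT1-1 and siFAT1-2 FAT1-sh1 and FAT1-sh2 and describe both as siRNAs. Per the submitters' processing notes, reads were aligned with HISAT2 to hg38 and counted with featureCounts, and the authors deposited a table of raw gene counts. Reads with poly-N, PCR duplicates and low-quality reads had been removed, per the study's methods, which can lower the counts of the most abundant transcripts. Versions, annotation, strand setting and treatment of multiply mapped reads are not given in the sources used here. No per-sample column was left unused (0). The members and lists were chosen with earlier results of these data known.

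Counts were fitted in edgeR 4.0.16 (R 4.3.3) with TMM scaling, filterByExpr (minimum count 10) and the quasi-likelihood test, with Benjamini-Hochberg adjustment over the 13887 genes tested (13626 in HN6, 13602 in HN30). The study pooled both lines and used limma-voom, which is run here as an alternative (limma 3.58.1), as is DESeq2 1.42.0. CPM were computed from TMM-scaled library sizes, and CPM per kb with the length of 1 GENCODE transcript a gene. Ratios were tested in Python 3.11.15 with scipy 1.17.1. Named genes were the 9 members, FAT1, PSMB5, PSMB6, PSMB7 and PSMB10, up to 4 genes a list by adjusted p under 0.05 or by unadjusted p under 0.05 with an absolute log2 fold change above 1 in FAT1 KD against NC, and the 5 genes most like the members; others are said to be chosen later. Some genes of the lists are not reported here.

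Counts were drawn anew from the mean of each line, with changes added to some genes. For FAT1 KD against NC, the fit recovered 83 of 95 genes changed by 2 on the log2 scale and 23 of 100 changed by 1. It made 5 false calls on unchanged genes, with 13727 genes tested in all. For siFAT1-1 against siFAT1-2 it recovered 70 of 98 and 8 of 98, with 4 false calls on unchanged genes and 13739 genes tested in all. In these draws a change of 1 on the log2 scale was often missed. Their dispersion came from a fit with the line alone, so it also held the differences between the siRNAs. How often the fit of the data with siRNA as a factor misses such a change was not measured. The sample titles mark a time and the design text says that the experiment was repeated at another time, so repeat numbers pair the samples; deviations from group means of same-numbered libraries correlated at r = -0.03 to 0.40 over genes. Alternatives were other scalings, no filter, other tests, the repeat as a block, and leaving out each library. With siRNA as a factor, the p-values rest on the spread between repeats of these lines and any difference between lines in the siRNA effect. In FAT1 KD against NC, within a line and for the interaction, the spread also holds the difference between the siRNAs.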

Additional observations from a re-analysis of the deposited data

How the results depend on the processing

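Counts of members called were 0 in every alternative for FAT1 KD against NC, siFAT1-1 against NC, knockdown within HN6 or HN30, and the interaction. For siFAT1-2 against NC, 3 members passed, and 2 to 5 without 1 library each (5 without HN30 siFAT1-2 repeat 2, when TAP1 and PSMB9 also passed). Within HN6 0 passed and within HN30 0. That setting sets 2 libraries against 2 in the model of the 6 conditions and was chosen after seeing the data. For siFAT1-1 against siFAT1-2, 7 passed, 4 to 7 without 1 library each (4 without HN30 siFAT1-1 repeat 1 or 2, HN30 siFAT1-2 repeat 1, HN6 siFAT1-1 repeat 1 or HN6 siFAT1-2 repeat 1), 1 within HN30 and 0 within HN6. For HN6 against HN30, 5 passed, and 5 to 6 without 1 library each. With the replicate block, 4 passed for siFAT1-2 against NC, 6 for siFAT1-1 against siFAT1-2 and 5 for HN6 against HN30; PSMB9 was gained and B2M lost, and it changed no other call of a member.

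Signs turned for these values, none of which passed: TAP1 in FAT1 KD against NC (-0.16 by limma-voom, -0.15 to 0.16 without 1 library each), PSMB8 there (-0.028 to 0.45 without 1 library each), and with siFAT1-1, HLA-B (-0.17 to 0.092 without 1 library each) and TAP2 (-0.15 within HN30, -0.12 to 0.21 without 1 library each). HLA-E between siRNAs was -0.0045 with no filter, -0.00028 with the replicate block, -0.10 on total counts alone, -0.19 within HN30 and -0.18 to 0.084 without 1 library each, and PSMB9 between lines was 0.0072 in NC alone and -0.42 to 0.091 without 1 library each. Within single lines and in the interaction, where 0 members passed, the number of members below 0 ran from 5 to 9 in HN6, 5 to 8 in HN30 and 3 to 8 for the interaction. The ratios turned with the siRNA, PSMB8 over PSMB5 being -0.16 with siFAT1-2 alone, PSMB9 over PSMB6 0.24 and PSMB10 over PSMB7 0.10 with siFAT1-1 alone; without 1 library each they ran from 0.06 to 0.51, -0.67 to -0.21 and -0.58 to -0.31. The causes were not tested.

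Total counts alone put the median of all genes at 0.11 for siFAT1-2 against NC, -0.11 between siRNAs and 0.13 within HN6, against -0.00, -0.02 and 0.03 with the scaling used. Over all genes, FAT1 KD against NC called 76 genes by edgeR, 640 by DESeq2, 44 with the replicate block, 4 with no cell line term and 12 to 61 without 1 library each (12 without HN30 NC repeat 1, 15 without HN6 NC repeat 1, 30 without HN30 NC repeat 2, and 38 to 44 without either HN30 siFAT1-1 library or HN6 siFAT1-1 repeat 2). siFAT1-1 against NC called 451 and 1216 by DESeq2, siFAT1-2 against NC 1641 and 2694, and siFAT1-1 against siFAT1-2 called 2420, but 1201 within HN30, 26 within HN6 and 1015 to 3381 without 1 library each (1015 without HN30 siFAT1-1 repeat 2, 1033 without HN30 siFAT1-1 repeat 1, 1346 without HN30 siFAT1-2 repeat 1, 1349 without HN6 siFAT1-1 repeat 1). The shares of all genes printed beside the members move with these counts. siFAT1-2 against NC called 693 to 1682 without 1 library each (693 without HN30 NC repeat 1, 849 without HN30 siFAT1-2 repeat 1, 878 without HN6 siFAT1-2 repeat 1, 1061 without HN30 siFAT1-1 repeat 2, 1076 without HN6 siFAT1-1 repeat 1), 24 within HN30 and 82 within HN6; siFAT1-1 against NC called 113 to 712 without 1 library each (113 and 119 without HN30 siFAT1-1 repeat 1 or 2, 166 and 292 without HN30 NC repeat 1 or 2, 259 and 269 without HN6 siFAT1-1 repeat 1 or 2, 712 without HN6 NC repeat 2), 203 within HN30 and 15 within HN6; HN6 against HN30 called 7907, and 4524 from NC alone.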
